A study of Rattus norvegicus with 6 samples.

Results

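The aldo-keto and carbonyl reductases described here are 10 rat genes, Akr1b8, Akr1b7, Akr1b1, Akr1a1, Akr7a2, Akr7a3, Akr1c14, Cbr1, Cbr3 and Cbr4, out of 15284 named genes on the array. They were chosen by enzyme family, with an earlier result of the same comparison in view, in which Akr1b8 had a large difference between the groups and a large spread between rats. Their values in this comparison are therefore a description and support nothing. Gene expression was measured in renal cortex of male Sprague-Dawley (Crl:CD(SD)) rats, bought at 5 weeks of age and fed a basal diet. Of these, 3 rats were given o-nitroanisole, a nitroaromatic compound, at 400 mg/kg/day for 4 weeks, and 3 rats were given corn oil for 4 weeks. Each rat gave 1 one-colour Agilent array, and the labels name the arrays of a group as biological replicates.

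Aldo-keto reductases and the carbonyl reductases of the short-chain dehydrogenase family use NADPH to turn reactive aldehydes and ketones into alcohols. In the kidney they act on glucose, glucuronate, aldehydes from lipid peroxidation and many drugs. Several of these genes in rodents are under the oxidant-sensing factor NRF2, and aldose reductase is under the tonicity factor NFAT5.

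All o-nitroanisole arrays lay on slide 2 and all corn oil arrays on slide 1, so a difference between the groups cannot be told apart from a difference between slides or scans. For the corn oil rats, the deposited value table orders the arrays differently from the scanner files, so which number belongs to which corn oil rat is not known, while both sources give every array the same group. Corn oil replicates are numbered here by the labels of the scanner files. Between 66.4% and 71.5% of probes per array were well above background. The 3 arrays per group limit the precision. As for the tissue, 15 of 15 measured proximal tubule markers were well above background on all arrays. So were 9 of 9 medulla and collecting duct markers and 6 of 8 liver markers, so this measure does not set cortex apart.

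The 10 genes had 14 probes, with 2 for Akr1b1, 3 for Cbr1, 2 for Cbr3 and 1 for each of the others. A gene is represented by its brightest probe, and 8 genes were measured well enough to be fitted. Akr1b7 and Akr1c14 were not. Each value below is a relative signal, the processed spot intensity as a multiple of the array's 75th percentile. Levels of different genes are not compared, since probes differ in brightness.

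Akr1b8 and the gene that follows it on chromosome 4, Akr1b10, had the largest positive differences among the aldo-keto reductases fitted, and the 250 bases before the start of each are shown for this reason. They are RefSeq sequences of assembly GRCr8, plus strand, from chr4:63964171-63964420 for Akr1b8 and chr4:64005382-64005631 for Akr1b10. Capitals mark a GC box (GGGCGG) at bases -105 to -100 before the start of Akr1b8, and the core of an aryl hydrocarbon receptor element (GCGTG) at bases -11 to -7 before the start of Akr1b10.
Akr1b8: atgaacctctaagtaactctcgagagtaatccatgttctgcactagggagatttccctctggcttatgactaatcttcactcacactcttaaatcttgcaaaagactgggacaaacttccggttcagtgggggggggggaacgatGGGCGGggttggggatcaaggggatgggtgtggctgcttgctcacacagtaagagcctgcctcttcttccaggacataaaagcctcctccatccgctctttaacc
Akr1b10: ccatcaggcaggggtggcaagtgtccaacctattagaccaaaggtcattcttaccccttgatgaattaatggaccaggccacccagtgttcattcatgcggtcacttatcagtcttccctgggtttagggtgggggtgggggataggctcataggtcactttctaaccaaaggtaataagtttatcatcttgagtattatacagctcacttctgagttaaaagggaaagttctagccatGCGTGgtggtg
The core of the antioxidant response element (TGACNNNGC), through which NRF2 acts, was searched on both strands of these windows, as were GCGTG and GGGCGG. The antioxidant core is in 10.1% of 33469 promoters of that length and in 0 of the 9 members with a promoter in the table. GCGTG is in 25.9% of the promoters and in 3 of the 9 (Akr7a2, Akr7a3 and Cbr1). GGGCGG is in 30.5% of the promoters and in 3 of the 9 (Akr1b8, Akr7a2 and Akr7a3). A match describes the letters in this window.

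Akr1b8, an aldose reductase-like enzyme of rodents that reduces lipid aldehydes, had a relative signal of 10.2, 13.0 and 1.70 in o-nitroanisole replicates 1, 2 and 3, against 0.497, 5.23 and 0.756 in corn oil replicates 1, 2 and 3. O-nitroanisole replicates 1 and 2 were above every corn oil rat, while o-nitroanisole replicate 3 lay below corn oil replicate 2, so the groups overlapped. The log2 difference, o-nitroanisole minus corn oil, was 2.28 ± 1.16 (SE, n = 3 per group), a geometric mean 4.87-fold higher. On leaving out 1 rat at a time it lay between 1.62 and 3.31.

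The spread of Akr1b8 between rats was large in both groups. The SD of its log2 signal was 1.60 in o-nitroanisole and 1.81 in corn oil, beside medians over all 32428 features of 0.12 and 0.116 in those groups. An SD at least as large was found for 129 features in o-nitroanisole, 0.398% of all, and for 109 features in corn oil, 0.336%. The highest rat was 7.62-fold above the lowest in o-nitroanisole and 10.5-fold in corn oil. Since Akr1b8 was picked with its spread known, these ranks are a description.

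**Figure D1:**
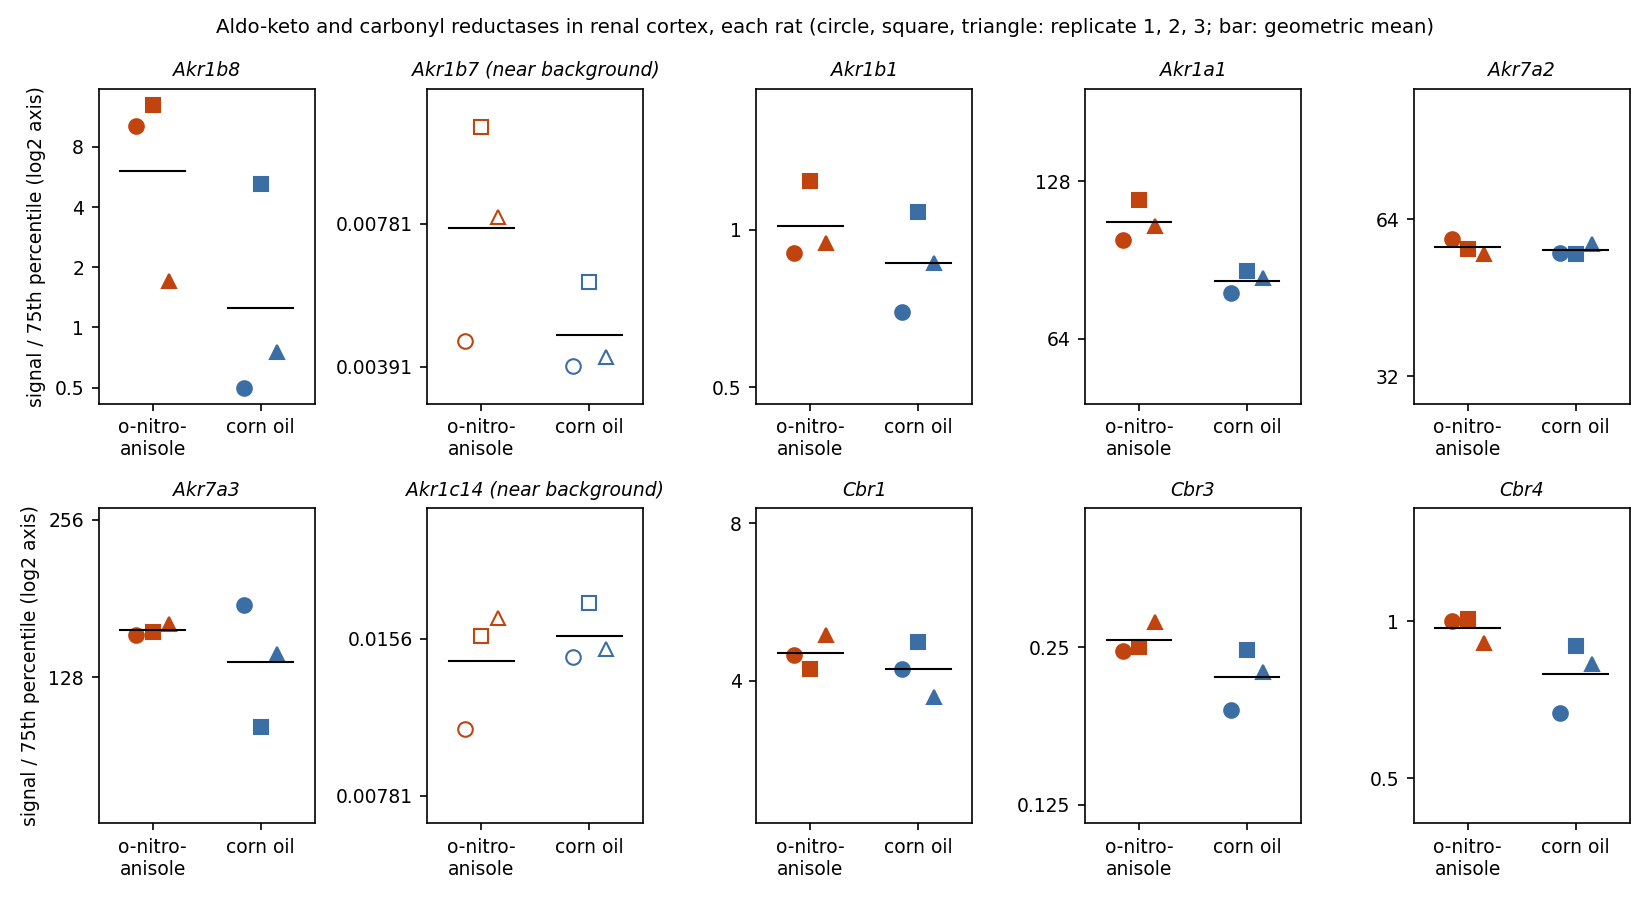
Relative signal of the 10 reductases in each rat, on a log2 axis with a range of its own in each panel and with o-nitroanisole left of corn oil; bars are geometric means and open symbols mark genes near background. Akr1b8 spans 1.70 to 13.0 in o-nitroanisole and 0.497 to 5.23 in corn oil, while the groups of Akr1a1 and Cbr4 do not overlap.

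Akr1b1 is aldose reductase, which makes sorbitol from glucose and is a classic gene of the tonicity response. Its relative signal was 0.901, 1.24 and 0.944 in o-nitroanisole, against 0.695, 1.08 and 0.862 in corn oil. The groups overlapped, and replicate 2 was the highest rat in each group, as it was for Akr1b8. The log2 difference was 0.24 ± 0.20 (SE, n = 3 per group). A dimmer Akr1b1 probe gave 0.263, 0.363 and 0.231 in o-nitroanisole, against 0.237, 0.366 and 0.288 in corn oil, a log2 difference of -0.06 ± 0.23. The probes thus disagreed in sign, and both differences were about the size of their SE or less.

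Akr1b7, which in mice reduces isocaproaldehyde in steroid-making cells, was not well above background on any of the 6 arrays. Its measured values were 0.00444, 0.0125 and 0.00806 in o-nitroanisole, against 0.00392, 0.00588 and 0.00410 in corn oil, and no fold is given.

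Akr1a1, the aldehyde reductase that turns glucuronate into gulonate on the way to ascorbate, gave 99.1, 118 and 105 in o-nitroanisole, against 78.3, 86.4 and 83.7 in corn oil. Every o-nitroanisole rat was above every corn oil rat. The log2 difference was 0.37 ± 0.09 (SE, n = 3 per group), or 1.29-fold, and it lay between 0.30 and 0.423 on leaving out 1 rat at a time and was 0.224 with quantile scaling. The SD of log2 signal was 0.13 in o-nitroanisole and 0.07 in corn oil.

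Akr7a2, which reduces succinic semialdehyde, was nearly level at 58.7, 56.1 and 54.9 in o-nitroanisole, against 55.0, 54.8 and 57.4 in corn oil. Its log2 difference of 0.02 ± 0.06 was below 0 with quantile scaling (-0.0979) and with normexp background correction (-0.0258). Its SD was 0.05 in o-nitroanisole and 0.04 in corn oil, so rats within a group were close together.

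Akr7a3, the aflatoxin aldehyde reductase of rat liver, gave 154, 156 and 162 in o-nitroanisole, against 176, 103 and 142 in corn oil. The o-nitroanisole rats lay close together inside the range of the corn oil rats. The SD of log2 signal was 0.04 in o-nitroanisole and 0.39 in corn oil. Its log2 difference of 0.20 ± 0.19 became -0.00178 without corn oil replicate 2, the rat with the lowest Akr7a3 and the highest Akr1b8 of its group. It was 0.0582 with quantile scaling and 0.337 with normexp.

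Akr1c14, the rat 3-alpha-hydroxysteroid dehydrogenase, was well above background on 1 of 3 arrays in each group and was not fitted. Its measured values were 0.0105, 0.0158 and 0.0171 in o-nitroanisole, against 0.0144, 0.0183 and 0.0149 in corn oil.

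Cbr1, the main cytosolic carbonyl reductase for quinones, prostaglandins and anthracyclines, gave 4.49, 4.21 and 4.90 in o-nitroanisole, against 4.21, 4.75 and 3.73 in corn oil. The groups overlapped, and the log2 difference was 0.11 ± 0.11 (SE, n = 3 per group), and 0.00733 with normexp. Of the other Cbr1 probes, one gave 0.944, 0.810 and 0.905 in o-nitroanisole, against 0.819, 0.831 and 0.668 in corn oil, a log2 difference of 0.20 ± 0.11. The dimmest gave 0.770, 0.730 and 0.791 in o-nitroanisole, against 0.657, 0.694 and 0.601 in corn oil, a log2 difference of 0.23 ± 0.08 with groups that did not overlap. All 3 Cbr1 probes were thus higher on average in o-nitroanisole, and they differed in whether the groups overlapped.

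Cbr3, a close relative of Cbr1 with a narrower range of substrates, gave 0.246, 0.251 and 0.280 in o-nitroanisole, against 0.190, 0.247 and 0.224 in corn oil. Only o-nitroanisole replicate 1 fell below the highest corn oil rat. The log2 difference was 0.24 ± 0.12 (SE, n = 3 per group). The second Cbr3 probe gave 0.165, 0.159 and 0.194 in o-nitroanisole, against 0.124, 0.149 and 0.146 in corn oil, a log2 difference of 0.31 ± 0.11. At that probe the groups did not overlap.

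Cbr4 is a mitochondrial quinone reductase that also works with Hsd17b8 in mitochondrial fatty acid synthesis. It gave 1.0, 1.01 and 0.906 in o-nitroanisole, against 0.668, 0.896 and 0.826 in corn oil, and the groups did not overlap. Its log2 difference was 0.30 ± 0.12 (SE, n = 3 per group), and 0.102 with normexp background correction. Hsd17b8, its partner, gave 10.1, 10.4 and 9.90 in o-nitroanisole, against 9.53, 9.43 and 9.09 in corn oil, a log2 difference of 0.12 ± 0.06, and 0.00545 with normexp.

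**Figure D2:**
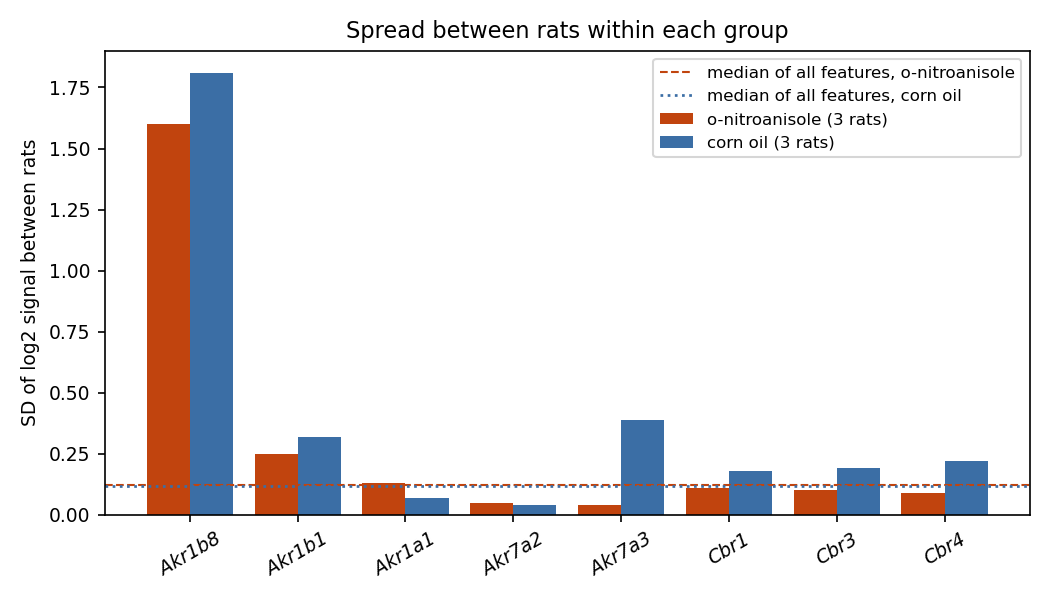
SD of log2 signal between the 3 rats of each group for the 8 fitted reductases, o-nitroanisole left of corn oil, with dashed and dotted lines at the medians over all features. Akr1b8 stands at 1.60 in o-nitroanisole and 1.81 in corn oil, and Akr7a3 at 0.04 in o-nitroanisole and 0.39 in corn oil.

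Over the 8 fitted genes, the median SD of log2 signal was 0.105 in o-nitroanisole and 0.206 in corn oil, while over all features it was 0.12 and 0.116 in those groups. The SD was smaller in o-nitroanisole for 6 of the 8, or 75%, against 49.2% of all features. With 3 rats per group, the SDs were not tested.

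All 8 fitted genes had a log2 difference above 0, as had 56.0% of all 32428 features. Their median log2 difference was 0.238, and that of all features was 0.0277. In 2 of the 8, Akr1a1 and Cbr4, every o-nitroanisole rat was above every corn oil rat, as in 17.6% of all features. In 0 of the 8 was every o-nitroanisole rat below every corn oil rat, as in 9.56% of features. With limma's default moderation, 0 of the 8 passed an adjusted p of 0.05, and 0.0% of features did. At an unadjusted p under 0.05 there was 1 of the 8, Akr1a1, against 18.9% of features. With limma's trend and robust options 0 of the 8 passed an adjusted p of 0.05, against 1.61% of features, and the lowest adjusted p among the 8 was 0.0595, for Akr1a1. Because the choice of genes used this comparison, nothing is read from these shares. The 2 genes left out of the fit are part of the family, so the counts hold for the 8 only.

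**Figure D3:**
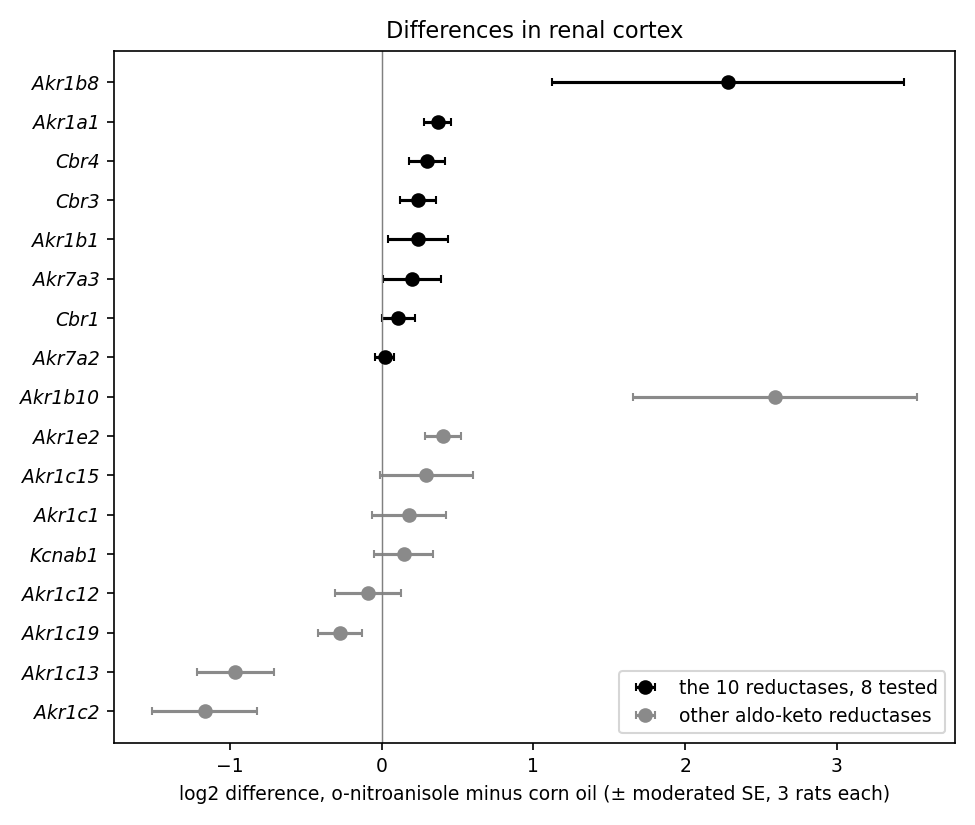
Difference in log2 signal, o-nitroanisole minus corn oil, ± moderated SE (3 rats per group), for the 8 fitted reductases (black) and the 9 fitted genes of the list of other aldo-keto reductases (grey). Akr1b8 and Akr1b10 lie furthest right at 2.28 and 2.59 with wide SEs, and Akr1c2 and Akr1c13, at -1.17 and -0.96, furthest left of those drawn.

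Akr1b8 lies on chromosome 4 between Akr1b1 and Akr1b10 in the RefSeq gene order, with Akr1b7 after Akr1b10. Akr1b10, another aldose reductase-like enzyme, gave 3.82, 5.44 and 1.99 in o-nitroanisole, against 0.140, 1.42 and 0.953 in corn oil. O-nitroanisole replicate 3 was the lowest of its group, as for Akr1b8, and corn oil replicate 2 the highest of its group, but here the groups did not overlap. The log2 difference was 2.59 ± 0.93 (adjusted p = 0.226 with limma defaults), with an SD of 0.74 in o-nitroanisole and 1.79 in corn oil. On leaving out 1 rat at a time it lay between 1.57, without corn oil replicate 1, and 3.25.

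The second Akr1b10 probe gave 2.01, 2.32 and 1.59 in o-nitroanisole, against 0.270, 0.721 and 0.962 in corn oil, a log2 difference of 1.77 ± 0.48. In that probe corn oil replicate 3, not 2, was the highest of its group. The RefSeq table also holds 5 pseudogenes named after Akr1b8 and 5 named after Akr1b1, and the files give no probe sequences, so how far each probe is specific to its gene is uncertain.

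The flanking genes had smaller differences and smaller spreads. Slc35b4, a sugar nucleotide transporter, had a log2 difference of -0.49 ± 0.13, and Bpgm, the bisphosphoglycerate mutase of red blood cells, of 0.27 ± 0.08. Cald1, the actin-binding caldesmon, lay at -0.13 ± 0.20.

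**Figure D4:**
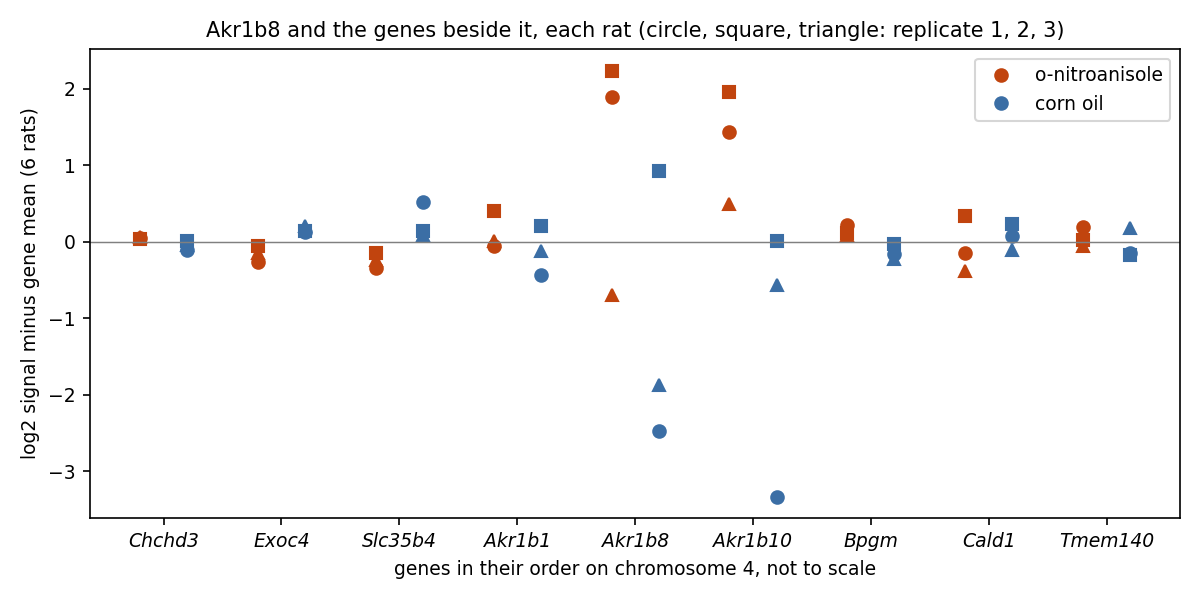
Log2 signal of each rat minus the gene's mean over the 6 rats, for Akr1b8 and the fitted genes within 6 places of it on chromosome 4, o-nitroanisole left of corn oil. Akr1b8 and Akr1b10 show ranges between rats of several log2 units, and the genes on either side lie nearer to 0.

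Genes whose pattern was most like that of Akr1b8 were taken over 11808 named genes, as a description in which all points come from the same 6 arrays. Pearson's r over the 6 arrays was 0.999 for Cdk4, 0.994 for Rtl8a, 0.984 for Grb7, 0.984 for Gtf3c1 and 0.982 for Cubn. For deviations from the group means, it was 0.999 for Cdk4 and 0.995 for each of Pcdh20, Hsf4 and Efna1, with Rapgef3 at 0.994. The range of Cdk4 over the 6 arrays was 0.20 log2 units and that of Grb7 0.43, so the likeness is of shape and not of size. The SD of Cdk4 was 0.07 in o-nitroanisole and 0.08 in corn oil, below the medians over all features of 0.12 and 0.116. The r values named are the highest of 11808 from 6 arrays, so the picking itself raises them.

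Akr1b10 stood at r = 0.867 over the 6 arrays and 0.766 in the deviations, at ranks 288 and 774. Among the reductases, Cbr4 was at 0.893 and Akr1b1 at 0.803 over the 6 arrays. Akr7a3 ran the other way, at -0.294 over the 6 arrays and -0.785 in the deviations.

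The other aldo-keto reductases did not move one way. Of 9 fitted, 4 passed an unadjusted p of 0.05, 2 higher and 2 lower, where 18.9% of all features did. With limma's defaults 0 of the 9 passed an adjusted p of 0.05, where 0.0% of all features did. Their median log2 difference was 0.145. Akr1c2, a hydroxysteroid dehydrogenase, gave 0.782, 0.542 and 0.568 in o-nitroanisole, against 1.68, 1.94 and 0.834 in corn oil. Every o-nitroanisole rat was below every corn oil rat, and the log2 difference was -1.17 ± 0.35 (adjusted p = 0.176).

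Akr1c13 gave 9.31, 8.02 and 6.12 in o-nitroanisole, against 16.6, 10.9 and 18.8 in corn oil, a log2 difference of -0.96 ± 0.25 (adjusted p = 0.154), and -1.05 ± 0.37 at a second probe. Akr1c12l1, which is on no list, lay at -1.07 ± 0.23 (adjusted p = 0.127), and Akr1e2 at 0.41 ± 0.12 (adjusted p = 0.174). Akr1c13, Akr1c12l1, Akr1e2 and Hsd17b8 were named after their values were seen.

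**Figure D5:**
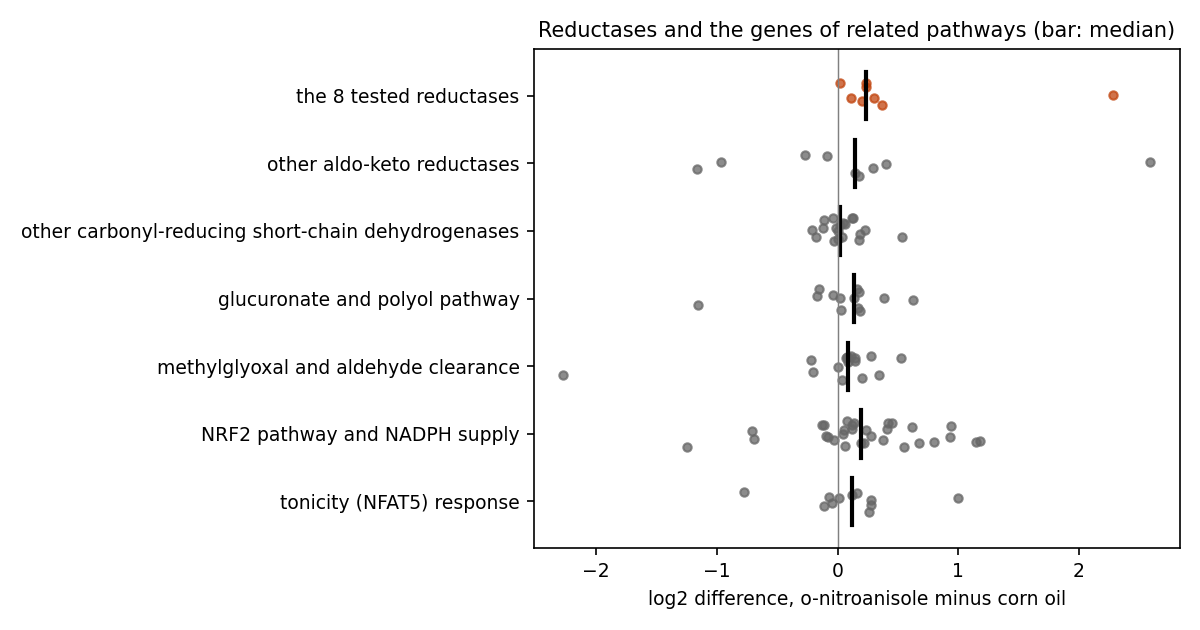
Log2 difference, o-nitroanisole minus corn oil, of the 8 fitted reductases and of each gene of 6 related lists; points are genes and bars are medians. The medians lie between 0.0243 and 0.238, and the 6 lists hold genes on both sides of 0.

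Across 6 lists of related pathways, 96 genes were fitted. With limma's defaults 0 of the 96 passed an adjusted p of 0.05, and 34 passed an unadjusted p of 0.05, 27 higher and 7 lower, where 18.9% of all features did. With trend and robust options 6 passed an adjusted p of 0.05, all higher, where 1.61% of all features did. The same shares of all features stand behind the counts of each list below. Their median log2 difference was 0.102. These lists were drawn up with earlier results known.

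Other carbonyl-reducing short-chain dehydrogenases numbered 19, with 2 higher and 0 lower at an unadjusted p of 0.05 and a median log2 difference of 0.0243. Decr2, the peroxisomal dienoyl-CoA reductase, lay at 0.53 ± 0.14 (adjusted p = 0.148), and the mitochondrial Hsd17b10 at 0.23 ± 0.08.

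Genes of the glucuronate and polyol pathway, around Akr1a1 and Akr1b1, numbered 13, with 3 higher and 1 lower at an unadjusted p of 0.05 and a median of 0.139. Sord, which oxidises the sorbitol made by Akr1b1, gave 23.4, 24.1 and 23.3 in o-nitroanisole, against 16.8, 19.4 and 18.2 in corn oil. Its groups did not overlap, and its log2 difference was 0.38 ± 0.07 (limma, adjusted p = 0.116 with defaults and 0.0426 with trend and robust options). Gulo, the last enzyme of ascorbate synthesis, lay at 0.63 ± 0.12 (adjusted p = 0.116; 0.296 with normexp), and Rgn, the gluconolactonase before it, at -1.15 ± 0.35 (adjusted p = 0.177). Dcxr, which reduces xylulose, lay at 0.19 ± 0.08 and Miox, which makes glucuronate from inositol, at -0.17 ± 0.07.

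Genes of methylglyoxal and aldehyde clearance numbered 16, with 5 higher and 2 lower at an unadjusted p of 0.05 and a median of 0.0873. Aldh1b1, a mitochondrial aldehyde dehydrogenase, gave 1.36, 0.0945 and 0.465 in o-nitroanisole, against 1.54, 1.86 and 2.34 in corn oil. Its o-nitroanisole rats lay below the corn oil rats and far apart from each other. The log2 difference was -2.27 ± 0.94 (adjusted p = 0.275), with an SD of 1.94 in o-nitroanisole and 0.30 in corn oil. It was -1.24 without o-nitroanisole replicate 2 and -1.34 as the mean of its probes. Adh1c, an alcohol dehydrogenase, lay at 0.52 ± 0.20 (adjusted p = 0.247).

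The NRF2 pathway and NADPH supply had 31 fitted genes, with 12 higher and 2 lower at an unadjusted p of 0.05 and a median log2 difference of 0.194, beside 18.9% of all features in either direction. With trend and robust options 5 passed an adjusted p of 0.05, all higher, beside 1.61% of all features: the epoxide hydrolase Ephx1 (0.67 ± 0.06), the efflux pumps Abcc2 (0.80 ± 0.11) and Abcc4 (0.94 ± 0.12), and the glutathione transferases Gsta1 (0.42 ± 0.07) and Gsta3 (0.45 ± 0.09). Nqo1, a quinone reductase like Cbr4, gave 0.40, 0.332 and 0.412 in o-nitroanisole, against 0.280, 0.193 and 0.145 in corn oil, a log2 difference of 0.93 ± 0.25 (adjusted p = 0.155). Its o-nitroanisole rats lay close together, and replicates 1 and 3 of that group were nearly level, so nothing is read from their order.

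Heme oxygenase, Hmox1, gave 1.06, 0.683 and 0.658 in o-nitroanisole, against 0.303, 0.415 and 0.349 in corn oil, a log2 difference of 1.15 ± 0.22 (adjusted p = 0.116). Gclm, a subunit of the enzyme that starts glutathione synthesis, was on the low side, with 0.0633, 0.0638 and 0.0441 in o-nitroanisole, against 0.18, 0.104 and 0.126 in corn oil, a log2 difference of -1.24 ± 0.25 (adjusted p = 0.118), and -0.691 with normexp. The transferase Gstm1 lay at 1.18 ± 0.53, NRF2 itself (Nfe2l2) at 0.22 ± 0.14 and its repressor Keap1 at 0.06 ± 0.07.

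Of the tonicity response, which includes Akr1b1 among its known targets, 11 other genes were fitted, with 3 higher and 0 lower at an unadjusted p of 0.05 and a median of 0.117. Bhmt, which uses the osmolyte betaine, gave 101, 117 and 108 in o-nitroanisole, against 39.6, 51.0 and 79.5 in corn oil, a log2 difference of 1.00 ± 0.26 (adjusted p = 0.149). The kinase Sgk1 lay at -0.77 ± 0.46. Bhmt and Sgk1 are named for the largest differences in the list and do not stand for the rest. Slc6a12 lay at -0.112 ± 0.125, Slc5a3 at 0.162 ± 0.184, Slc6a6 at 0.277 ± 0.063 and NFAT5 itself (Nfat5) at -0.068 ± 0.064.

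Markers of other cells moved beside these values in some lists. In all 7 fitted red blood cell markers every o-nitroanisole rat was above every corn oil rat, against 17.6% of all features. Their mean log2 signal was 3.80 to 4.24 in o-nitroanisole and 2.88 to 3.04 in corn oil, and Ahsp, the alpha globin chaperone, differed by 1.98 ± 0.36. Rhag, of the same list, was near background in all 6 rats. Of 8 macrophage and neutrophil markers, 3 were higher and 0 lower at an unadjusted p of 0.05, with a mean log2 signal of -0.01 to 0.40 in o-nitroanisole and -0.21 to -0.17 in corn oil. Their median log2 difference was -0.0232, with 3 of 8 above 0. S100a8, S100a9 and Cd14 were the 3, and S100a8 differed by 1.76 ± 0.27. In whole cortex, more cells of a type and more RNA per cell cannot be told apart, and the part of these markers in the reductase values was not tested.

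Of adrenal cortex markers, relevant to Akr1b7 and the steroid-reducing members, 8 were fitted with a median of -0.227, and Cyp11b1, Cyp11b2, Nr5a1 and Star were not well above background on any array. Their mean log2 signal was -1.96 to -1.78 in o-nitroanisole and -1.96 to -1.23 in corn oil. At an unadjusted p of 0.05 there was 1 higher, the lipoprotein receptor Scarb1 (0.536 ± 0.116), and 1 lower, Cyp21a1 (-0.69 ± 0.16).

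In the proximal tubule, medulla and collecting duct, loop of Henle and distal tubule, liver and fat lists the medians lay between -0.074 and 0.107. The counts below are at an unadjusted p of 0.05, and the marker named is the one with the largest difference in its list, whichever way the others lay. Of 15 proximal tubule markers 5 were higher and 2 lower, with Gatm at -0.77 ± 0.20. Of 9 medulla and collecting duct markers 3 were higher and 1 lower, with Cryab at -0.96 ± 0.39. Of 7 markers of the loop of Henle and distal tubule 0 were higher and 2 lower, with Calb1, not among the 2, at 0.64 ± 0.33. Of 6 liver markers 0 were higher and 1 lower, with Apoa1 at 0.72 ± 0.75, and of 6 fat markers 1 was higher and 0 lower. The higher fat marker, Pck1 (0.574 ± 0.128), was also on the proximal tubule list and counted there. Slc4a1 (0.669 ± 0.168) was likewise counted in both the red blood cell list and the medulla and collecting duct list. Retn, a fat marker, was near background in all corn oil rats, and its groups overlapped. Its log2 difference was 1.98 ± 1.10 (limma, adjusted p = 0.392), in a fit that it entered through the o-nitroanisole arrays alone. A separate bound, not tested, set corn oil signals no lower than the lowest one well above background. By that bound its geometric mean was at least 2.75-fold higher in o-nitroanisole. That bound was carried by o-nitroanisole replicate 3, at 0.255 against 0.0156 and 0.0220 in the other o-nitroanisole rats. It does not hold under other settings, as the log2 difference was 0.716 without that rat and 0.802 with normexp.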

How the data were processed

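The processed signal of a spot is an intensity from which background was subtracted, per the file headers. The software was Agilent Feature Extraction 10.7, per the submitters' processing notes. The deposited value table holds, on a linear scale, a ratio of each processed signal to its array's 75th percentile, as found by comparison with the scanner files within 1%. From the deposited intensities, log2 signal minus the array's 75th percentile was computed. Of 61657 non-control probes, 84 spike-in probes were left out, and 51 outlier spots were set to missing. Genes were named through RefSeq accessions (27460 probes). A probe was fitted where all arrays of 1 group or both showed it well above background, and a gene was its brightest probe. Unnamed probes were kept, giving 32428 features.

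The fit used limma 3.58.1 under R 4.3.3, lmFit then eBayes at its defaults, with Benjamini-Hochberg adjustment over all features at 0.05. It was also run on simulated data with known changes and no difference between slides, which checks the code and not the results given here. Tables and plots used Python 3.11.15, pandas 2.3.3, numpy 2.4.6 and matplotlib 3.10.9. The members and lists were chosen with earlier results of these data known. The text names all members, list genes past the threshold or else the 2 with the largest difference per pathway list and 1 per marker list (1 marker list is not reported here), 7 genes in any case and the 5 genes most like Akr1b8. Pathway list genes past the trend and robust threshold were added after their values were seen, as were Slc6a12, Slc5a3, Slc6a6 and Nfat5. A bound such as that of Retn sets the brighter group's mean against, per dim array, whichever is higher of the probe's own signal and the lowest one that was well above background. Normexp (offset 50) used the median signal, since the files as read give no mean signal column. Alternatives covered background, scaling, filter, probe choice, moderation, outliers, source, single rats, pairing and threshold. Array headers name build rn4, so coordinates of the probes are not given. The promoters and their coordinates are those of GRCr8.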

Additional observations from a re-analysis of the deposited data

How the results depend on the processing

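Under every setting run, 0 members passed the threshold. The smallest adjusted p among them was 0.0595, with trend and robust moderation, and 0.081 with normexp. Over 152 values of single members under the alternatives, 148 kept their direction and side of the threshold and 4 changed sign. Akr7a2 lay at -0.0979 with quantile scaling, -0.0258 with normexp and -0.00545 without o-nitroanisole replicate 1, the lowest of the values without 1 rat, whose highest was 0.0427. Akr7a3 lay at -0.00178 without corn oil replicate 2, the lowest of its values without 1 rat, whose highest was 0.385. The cause was not tested. Genes of the pathway lists past the threshold numbered 0, but 3 at an adjusted p of 0.10, 2 with normexp and 6 with trend and robust moderation. Among other genes named, normexp gave 0.124 for Hsd17b10, 0.0903 for Dcxr, -0.046 for Miox and 0.802 for Retn, and quantile scaling gave 0.105 for Hsd17b10, 0.0661 for Dcxr, 0.142 for Nfe2l2 and 0.261 for Gsta1. The mean of a gene's probes gave 0.745 for Gsta3, 0.0884 for Akr1b1 and 0.18 for Cbr1. Without 1 rat, Sgk1 lay between -1.25 and -0.349, Gstm1 between 0.68 and 1.57, Apoa1 between 0.0402 and 1.22, Calb1 between 0.403 and 0.993 and Cryab between -1.36 and -0.58. Leaving out each rat in turn gave 0 to 0 list genes past the threshold, and 0 members. Without 1 rat, the log2 difference was 0.0813 to 0.397 for Akr1b1, 0.0172 to 0.192 for Cbr1, 0.134 to 0.325 for Cbr3 and 0.175 to 0.387 for Cbr4. The SD of Akr1b8 was 1.59 in o-nitroanisole and 1.74 in corn oil with normexp, and 1.60 and 1.83 with quantile scaling.

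By the scanner files' numbers, same-numbered rats of the groups correlated at r = 0.0911, 0.0584 and 0.0257 in their deviations, and differently numbered rats at -0.0969 to 0.0337. All were small, but 0.0911 and 0.0584 lay above that range. By the value table's corn oil numbers, the same-numbered rats were instead at -0.000658, -0.0295 and 0.0337. Since the right numbering is not known, these values do not settle whether the numbers mark a pairing. With the replicate number as a block, 0 members and 0 of 96 list genes passed, with a smallest adjusted p of 0.21 among members. The block with the value table's corn oil numbers, added after seeing the data, also gave 0 and 0. A slide block was not run, since no slide held both groups. The 3 arrays per group and, for Akr1b7 and Akr1c14, a signal near background limit these results.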
